A study of Sus scrofa with 70 samples.

Results

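Antisense isoforms are transcripts read from the strand opposite to an annotated gene, within whose span they lie at least in part. Of the 110996 isoforms obtained by PacBio Iso-seq, which sequences complementary DNA copies of whole transcripts, from 5 reproductive organs of the boar, 3276 (2.95%) were placed in this class by SQANTI3, a program that compares each isoform with the Ensembl annotation. Membership was decided by structure alone, and no read count or expression value entered it. These isoforms lay opposite 2101 sense genes, of which 1403 (66.8%) have a gene symbol. At 1523 of them a single antisense isoform was found, at 578 there were 2 or more, and the largest number at 1 gene was 14.

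The organs were the testis, the epididymis and the 3 accessory sex glands, namely the vesicular, prostate and bulbourethral glands, of boars aged 12 months. The boars came from 2 Chinese breeds, the Banna mini-pig inbred line (BMI) and the Diannan small-ear pig (DSE), with no treatment in any group. Each breed and gland had 1 Iso-seq library and 3 short-read RNA-seq libraries. The 10 Iso-seq libraries held between 231413 and 458697 full-length reads, 3468110 in all.

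Antisense transcripts are common products of mammalian genomes. Some begin close to the promoter of the sense gene and run away from it, others begin beyond its end and run into it, and others lie within an intron. Known examples can silence or stabilize the sense transcript, keep imprinted genes quiet, or regulate developmental loci such as the HOX clusters, while for most no role is known. The testis is known for transcribing an unusually wide part of the genome during spermatogenesis. Antisense reads can also be made in the test tube, when reverse transcription jumps between similar stretches or is primed on an internal run of A, and splice sites and the bases after the 3′ end of an isoform bear on this.

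The ends of 4 well separated members show what a processed transcript looks like. The last 30 bases of each are given 5′ to 3′ on the strand of the antisense isoform, in the Sscrofa11.1 build, with the polyadenylation motif listed for it in capitals.
LIPA antisense, chr14:101134194-101134223, plus strand: attacatgacacAATAAAgcagctatacgc
ZEB1 antisense, chr10:41895080-41895109, minus strand: taatgttaaaaaAATAAAtgtttttaaagg
MZB1 antisense, chr2:141281736-141281765, plus strand: tcatcttgctccaAATAAAacttaacccct
PAX9 antisense, chr7:63346406-63346435, plus strand: ttacAATAAAaacaatcgacatttcttttc
All 4 carry AATAAA, the most common signal for cleavage and polyadenylation. Among all antisense isoforms this hexamer was listed for 826 (25.2%), ATTAAA for 191 (5.83%) and any of the motifs searched by SQANTI3 for 1756 (53.6%).

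The 20 genomic bases that follow the 3′ end separate the members into a mixed sequence and long runs of A, on which an oligo(dT) primer could anneal. The bases are given on the strand of the antisense isoform, with A in capitals.
LIPA antisense, chr14:101134224-101134243, plus strand: AggtgctgtgAAtgAtgctg
NT5DC1 antisense, chr1:81811252-81811271, minus strand: AAAAAAAAAAAAAAAAAAAA
SAMHD1 antisense PB.8953.48, chr17:40140506-40140525, plus strand: AAAAAgAcAAAAAAAAAAAA
At least 60% A in these 20 bases, called A-rich here, was found for 1368 antisense isoforms (41.8%, Wilson 95% interval 40.1 to 43.5), against 29.8% of all Iso-seq isoforms. A polyadenylation motif was listed for 40.6% of the A-rich members and for 62.9% of the others.

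Introns tell the strand, since nearly all begin with GT and end with AG on the transcribed strand. The first and last 10 bases of an intron are given for 1 member with this pattern, 1 without it, and 2 whose intron has the same coordinates as an intron of a transcript on the opposite strand, with the terminal pairs in capitals.
KHDRBS3 antisense, chr4:6446355-6448455, first bases: GTacttctcc
KHDRBS3 antisense, chr4:6446355-6448455, last bases: ttcctttcAG
NT5DC1 antisense, chr1:81811905-81812212, first bases: CTaggggcaa
NT5DC1 antisense, chr1:81811905-81812212, last bases: aaaaacaaAA
SAMHD1 antisense PB.8953.50, chr17:40145367-40146882, first bases: CTgaaagaca
SAMHD1 antisense PB.8953.50, chr17:40145367-40146882, last bases: ataaacttAC
ATL2 antisense, chr3:102023754-102024621, first bases: CTaagaaata
ATL2 antisense, chr3:102023754-102024621, last bases: cacacactAC
CT and AC are what GT and AG of a sense intron read as on the other strand. Such mirrored introns were rare. Of the 7715 introns of the antisense isoforms, 37 had the coordinates of an opposite-strand intron, in 32 isoforms, and 7 of the 37 were CT-AC. Of the 7547 introns on assembled chromosomes, 4968 (65.8%) were GT-AG, 576 (7.63%) GC-AG and 95 AT-AC. Introns that were not GT-AG had a median length of 5823 bases against 2826.5 for GT-AG, and 313 of all introns exceeded 500000 bases.

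All splice sites were canonical in 2405 antisense isoforms (73.4%), and 633 (19.3%) carried the SQANTI3 mark for template switching, a direct repeat at the junction. Both criteria were met by 2154 isoforms (65.8%, against 82.7% of all isoforms), which held 75.5% of the antisense reads. The share that met both rose with read support, from 61.1% of the isoforms with 2 reads (the lowest number deposited) through 69.7% of those with 3 to 9 to 83.3% of the 252 with at least 10. A polyadenylation motif was likewise listed for 49.8%, 56.9% and 67.5%. Isoforms of 2 exons, 1684 in number, met both criteria in 69.4% and those with more exons in 61.9%.

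The position of each isoform was classified against the span of the sense gene in Ensembl. Inside the sense gene lay 1169 (35.7%), and 906 (27.7%) spanned it whole. Another 608 (18.6%) overlapped head-to-head, starting within the gene and leaving it past its start, and 593 (18.1%) tail-to-tail, starting beyond its end and finishing within it. Exons of both strands shared at least 1 base in 1633 pairs (49.8%), over a median of 308 and at most 5675 bases. This overlap was found in 81.1% of the tail-to-tail and 77.8% of the head-to-head isoforms, in 42.9% of those inside and in 19.5% of the spanning ones.

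The classes also differed in features that position did not use. Tail-to-tail isoforms met both splice criteria in 79.4%, head-to-head isoforms in 68.8%, those inside in 65.6% and spanning isoforms in 55.0%. Spanning isoforms were A-rich in 61.6% against 30.8% to 37.8% in the other classes. These are descriptions of isoforms, several of which can come from 1 locus.

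**Figure D1:**
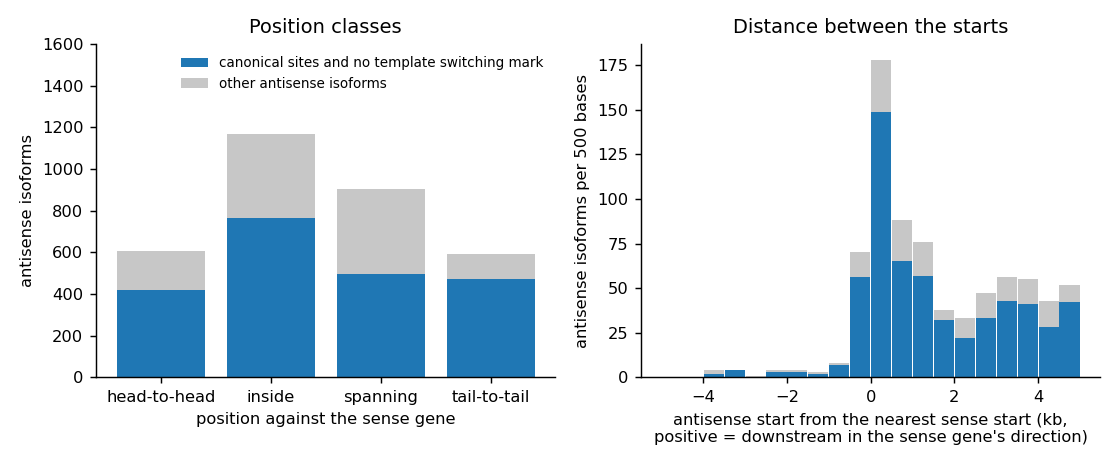
Left, number of antisense isoforms (y axis) in each position class against the sense gene (x axis), with those that had canonical splice sites and no template switching mark in blue and the rest in grey. Right, number of isoforms per 500 bases (y axis) by the distance of their start from the nearest start of a sense transcript (x axis, kb, positive downstream in the direction of the sense gene), where the bin of 0 to 500 bases holds 178 isoforms, more than any other bin drawn.

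Starts gathered just inside the start of the sense gene. Within 1000 bases of a sense start lay 344 antisense starts (10.5%), 292 of them head-to-head, and within 500 bases 248 (7.57%). The window from 250 bases before to 50 bases after the antisense start had a median GC content of 63.3% in the near group (343 windows on chromosomes), of 48.0% in the 2871 farther ones and of 50.7% at 34261 Ensembl gene starts. The observed over expected frequency of CpG was at least 0.6 in 66.2%, 29.0% and 36.2% of these windows. The near antisense starts therefore lay in windows richer in GC and CpG than the starts of all genes, windows which hold the first bases of the sense gene as well.

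The RefSeq annotation of the same build, which was not used to define the class, held a transcript on the antisense strand that shared an intron with 621 isoforms (19.0%). They carried 29.0% of the antisense reads and met both splice criteria in 85.7%. For 455 of them the RefSeq partner was non-coding RNA alone and for 154 an mRNA was among the partners. No RefSeq exon on the same strand was found for 2385 (72.8%). The shared intron was found in 35.4% of tail-to-tail, 22.7% of head-to-head, 20.3% of spanning and 7.61% of inside isoforms.

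Antisense isoforms took 15644 full-length reads, 0.451% of all. A library had no replicate here, so that differences among the 10 carry no replicate check, and the intervals cover counting error only. In testis the share was 0.54% in BMI (Wilson 95% interval 0.519 to 0.561) and 0.564% in DSE (0.543 to 0.586). In epididymis it was 0.564% in BMI and 0.772% in DSE (0.737 to 0.809), the highest of the 10. The vesicular gland gave 0.333% and 0.283%, the prostate gland 0.444% and 0.276%, and the bulbourethral gland 0.222% and 0.526%, in BMI and DSE. The intervals of both breeds overlapped in testis alone, and the higher value belonged to BMI in vesicular and prostate gland and to DSE in epididymis and bulbourethral gland.

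The features of these reads moved with the glands, and their part in the differences between libraries was not tested. In testis, 88.1% (BMI) and 89.2% (DSE) of the antisense reads belonged to isoforms that met both splice criteria, in epididymis 82.1% (BMI) and 72.0% (DSE), and in the 6 accessory gland libraries 54.3% to 70.5%. For the reads of all isoforms the same share was 91.9% to 93.8% in every library. A-rich isoforms took 21.1% and 21.6% of the antisense reads in testis and 40.5% to 55.0% in the other 8 libraries, against 12.7% to 19.0% for all reads. Counting isoforms that met both criteria alone, the share of reads was 0.476% and 0.504% in testis, 0.463% and 0.556% in epididymis, and 0.157% to 0.286% in the accessory glands.

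**Figure D2:**
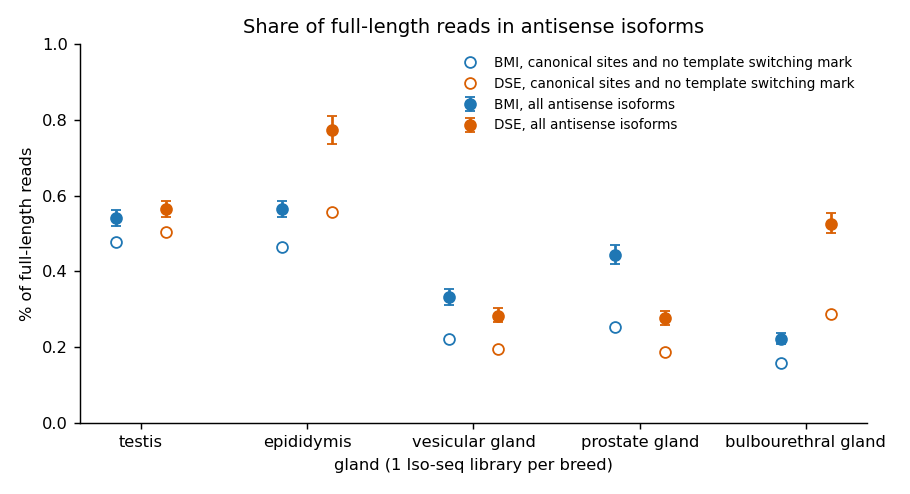
Share of the full-length reads of each Iso-seq library that fell in antisense isoforms (y axis, percent) by gland (x axis), for BMI in blue and DSE in orange. Filled points are all antisense isoforms with Wilson 95% intervals of counting error, open points are those with canonical splice sites and no template switching mark, and the gap between them is smallest in both testis libraries.

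Most antisense isoforms were rare. The median was 2 reads over the 10 libraries, 1898 isoforms had exactly 2, and the 252 isoforms with at least 10 reads held 6881 reads (44.0%). In a single library were found 1276 (38.9%), in 3 or more 650 (19.8%), and in all 10 libraries 7. A single gland held 1825 (55.7%), and 59 were seen in all 5 glands. Of the 761 seen in testis alone, 358 (47.0%) were found in both breeds, whereas the corresponding share was 18.4% of 510 in epididymis, 16.1% of 168 in vesicular gland, 13.7% of 161 in prostate gland and 21.3% of 225 in bulbourethral gland. The share found in both breeds was thus highest for testis, whose libraries also had nearly equal depth (455023 and 457778 reads).

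Among the isoforms with at least 10 reads, 238 of 252 were read in both breeds, and for 143 of these (60.1%) the same gland gave the most reads in BMI and DSE. Short reads gave a second measure of the same isoforms. Of 223 that were in the TPM table (a level per transcript length, scaled to the same total in each library), 158 (70.9%) had their highest median TPM in the gland of their most full-length reads. This held for 79 of 82 testis isoforms, 46 of 65 of epididymis, 11 of 22 of vesicular gland, 6 of 20 of prostate gland and 16 of 34 of bulbourethral gland.

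The isoform with the most reads lay opposite LIPA, the gene of lysosomal acid lipase, which breaks down cholesteryl esters and triglycerides. It covers chr14:101127502-101134223 on the plus strand in 3 exons, lies inside LIPA, and shares 2762 exonic bases with it and an intron with the RefSeq non-coding RNA LOC102164066. Of its 568 reads, 512 came from BMI epididymis and 56 from DSE epididymis, with 0 in the other 8 libraries. At this locus the 573 antisense reads exceeded the 504 sense reads over all libraries. In epididymis too was the isoform opposite PPY, the gene of pancreatic polypeptide, a hormone of the islets (chr12:19216275-19223671, minus strand, spanning PPY). It had 123 reads in BMI and 111 in DSE epididymis and none elsewhere, and 85% A after its 3′ end. No sense read of PPY was found in any library, which allows up to 3 reads in all, and the isoform shares an intron with a RefSeq mRNA, LOC110255899.

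In 6 of the 10 most read isoforms most reads came from testis. KHDRBS3, an RNA-binding regulator of splicing, had an antisense isoform starting 258 bases inside its start (chr4:6446131-6452382, plus strand) with 58 reads in BMI testis, 107 in DSE testis and 1 in BMI epididymis. NAV2, a neuron navigator protein of the cytoskeleton, had one inside its span (chr2:39331839-39346787, plus strand) with 36 and 114 testis reads. RAB7A, a small GTPase of late endosomes, had one overlapping its end (chr13:71769660-71781948, plus strand, 75% A after the 3′ end) with 44 and 88 testis reads and 1 in DSE epididymis. In these 3 the DSE testis library gave more reads than the BMI library at nearly equal depth, while 7 libraries or more gave none.

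SMAD2, which carries TGF-β and activin signals to the nucleus, had a head-to-head isoform starting 100 bases inside its start (chr1:97511250-97515596, plus strand), with 50 reads in each testis library and the template switching mark. ZEB1, a zinc finger repressor known from epithelial-mesenchymal transition, had a head-to-head isoform starting 108 bases inside its start (chr10:41895080-42013851, minus strand) with 28 and 50 testis reads and 6 elsewhere. GTF2I, a general transcription factor, had one inside its span, 785 bases from a start (chr3:11703927-11706899, minus strand, 80% A after the 3′ end), with 22 and 29 testis reads and 14 elsewhere. Head-to-head isoforms with starts near that of the sense gene thus made up 3 of these 6.

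The remaining pair was broad. GJC3, a connexin of gap junctions, had a tail-to-tail isoform (chr3:7837602-7842032, plus strand) read in all 10 libraries, with 2 and 3 reads in testis, 39 and 16 in epididymis, 23 and 23 in vesicular gland, 12 and 31 in prostate gland and 21 and 7 in bulbourethral gland. It shares an intron with the RefSeq non-coding RNA LOC110259868, and GJC3 itself had 0 sense reads. NT5DC1, a gene of the 5′-nucleotidase domain family, had the isoform shown above with the CT-AA intron and the run of 20 A (chr1:81811272-81814141, minus strand). Its 73 reads came from 9 libraries, 32 of them from DSE bulbourethral gland, and it was not in the TPM table.

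**Figure D3:**
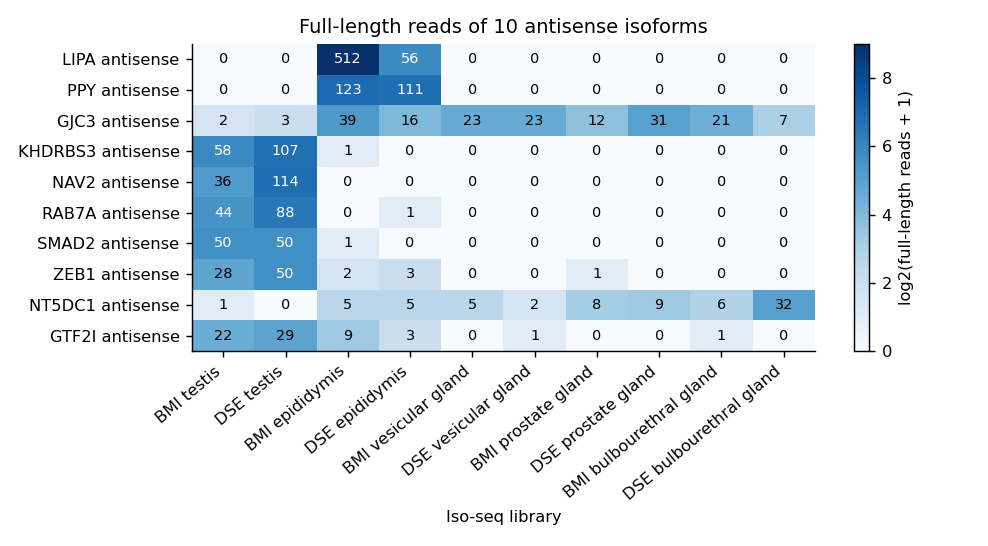
Full-length reads (numbers in the cells, colour as log2 of reads + 1) of the 10 antisense isoforms with the most reads whose sense gene has a symbol (rows, named by the sense gene) in the 10 Iso-seq libraries (columns). The LIPA and PPY isoforms have reads in both epididymis libraries alone, KHDRBS3, NAV2, RAB7A, SMAD2, ZEB1 and GTF2I mostly in testis, and GJC3 in every library.

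Sense and antisense full-length reads were compared at each of the 2101 loci, counting a sense isoform that joins several genes for each of them. Sense reads were found at 1513 loci, with medians of 114 sense and 3 antisense reads over all libraries. No sense read was found at 588 loci (28.0%), and antisense reads exceeded sense reads at 686 (32.7%), 98 of which had sense reads. Both strands were read in the same library at 1392 loci (66.3%). Within single libraries, 56.6% to 63.8% of the loci with antisense reads had sense reads as well. KHDRBS3 had 171 antisense against 17 sense reads, NAV2 152 against 39 and RAB7A 193 against 97. The 7 antisense isoforms of ZEB1 together had 141 reads against 418, and the 2 of GTF2I had 72 against 2089.

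The 2 strands peaked in the same gland at some of these loci and not at others. At NAV2, 38 antisense and 2 sense reads came from BMI testis and 114 and 3 from DSE testis, while BMI epididymis gave 24 sense reads and no antisense read. At RAB7A, BMI testis gave 61 antisense and 7 sense reads and DSE testis 124 and 8, while the other 8 libraries gave 0 to 2 antisense and 3 to 18 sense reads each. At KHDRBS3 both strands were read mainly in testis.

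The 30 RNA-seq libraries were checked against gland markers before the contrasts. The protamine and transition protein genes PRM1 and TNP1, INSL3, the spermadhesins AWN, PSP-I and PSP-II, MSMB, AGR2 and TFF3 were each highest in the gland they mark. AQN-1, LCN5, MUC19 and MUC5B were not matched by symbol, SOX9 was highest in bulbourethral gland and ACP3 in epididymis. The DSE testis library 2 had 23135 TPM in 4 spermatid markers against 66404 to 100953 in the other 5 testis libraries, and 61438 TPM in 3 Leydig cell markers against 17754 to 31434. The BMI prostate library 2 had 301319 TPM in 4 vesicular gland markers against 2.76 to 19.6. BMI epididymis library 2 had 8449 TPM of GPX5 and 10294 TPM of RNASE10 (4.42 to 928 and 3.09 to 20.1 in the others), and DSE epididymis library 1 had 21.3 TPM of CRISP1 (1100 to 2759 in the others). In epididymis the spermatid markers summed to 1.13 to 931 TPM and 3 smooth muscle markers to 738 to 11706 TPM, against 34.9 to 66.0 TPM of the latter in testis. Counts are given below with these 4 libraries and without them, and the part of cell mixture in the results was not tested. In bulk tissue, fewer cells of a type and less RNA per cell cannot be told apart.

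Of the antisense isoforms, 3132 had a TPM value, and 1289 reached at least 1 TPM in at least 3 of the 30 libraries and were tested. The library kit does not mark the strand, so where exons of both strands overlap, short reads cannot be assigned to a strand by themselves. Summed over members, antisense isoforms held a median of 1.31% of the TPM in testis (0.967 to 1.39, 6 libraries), 0.609% in epididymis (0.501 to 0.788), 0.511% in bulbourethral gland (0.4 to 0.687), 0.379% in prostate gland (0.24 to 0.577) and 0.255% in vesicular gland (0.214 to 0.298). The lowest testis library, which was DSE testis library 2, lay above the highest of any other gland. In vesicular gland 4 marker genes alone took 370695 to 496295 TPM, which leaves less for all others.

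In testis against the mean of the other 4 glands, 606 antisense isoforms were higher (47.0% of those tested) and 72 lower (limma on log2(TPM + 1), adjusted p below 0.05 and at least 1 on the log2 scale). Over all 64661 transcripts tested, 28.4% were higher and 9.53% lower. In 479 of the 606, all 6 testis libraries lay above all 24 others. The same count was not made over all transcripts, so it has no background here. The median log2 difference was 0.839 over the antisense isoforms and 0.0594 over all transcripts. Without the 4 libraries named above 630 were higher and 76 lower. An isoform could pass the filter on low values through testis alone, so that the share of 47.0% describes the isoforms that passed and is no support for a testis excess, although the transcripts of the background passed the same filter.

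The other glands gave fewer. In epididymis 134 were higher (10.4%, background 9.63%) and 74 lower (5.74%, background 4.4%), and with TPM rescaled by size factors 88 were higher and 88 lower. In vesicular gland 26 were higher (2.02%, background 2.49%) and 143 lower (11.1%, background 13.4%), against 63 and 119 after rescaling. In prostate gland 28 were higher (2.17%, background 2.6%) and 127 lower (9.85%, background 6.56%). In bulbourethral gland 44 were higher (3.41%, background 6.37%) and 128 lower (9.93%, background 6.46%), against 29 and 135 after rescaling. The share of higher isoforms was thus near its background in epididymis, vesicular and prostate gland and below it in bulbourethral gland. Without the 4 libraries, 132 were higher and 97 lower in epididymis, 38 and 148 in prostate gland, 27 and 161 in vesicular gland and 41 and 144 in bulbourethral gland. A pseudocount of 0.1 TPM in place of 1 gave 243 lower in testis and raised the counts in the others to 94 higher and 523 lower in bulbourethral gland, 75 and 504 in prostate gland, 74 and 609 in vesicular gland and 277 and 338 in epididymis. The rescaling moved the median of all transcripts by −0.204 in epididymis, 0.237 in vesicular gland and −0.107 in bulbourethral gland.

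Opposite genes with a symbol, the 4 largest upward differences in testis belonged to isoforms with 2 to 5 full-length reads. Opposite RP9, a protein linked to pre-mRNA splicing and to retinitis pigmentosa, an isoform of 9 exons on chr18:40420598-40568953 had 71.5, 240 and 285 TPM (lowest, median and highest of 6 testis libraries) and at most 1.43 TPM in the other 24. It has a splice site that is not canonical and shares an intron with a RefSeq mRNA, LOC100738935. Its log2 difference was 7.58 ± 0.19 (SE, limma adjusted p = 2.79e-20), while RP9 itself differed by 0.34. Opposite ZC3H4, a zinc finger protein that restrains non-coding transcription, an isoform had 50.8, 202 and 316 TPM in testis and at most 1.45 elsewhere (7.34 ± 0.193, limma adjusted p = 5.73e-20). The level of ZC3H4 in testis was 5.42, 7.39 and 10.2 TPM, so that on this per-length scale the level of the antisense isoform, which shares no exonic base with it, stood above that of its sense gene in every testis library.

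Opposite TMEM106A, a transmembrane protein gene, an isoform had 40.6, 134 and 185 TPM in testis and at most 2.33 elsewhere (6.71 ± 0.209), and the sense gene was higher in testis as well (log2 difference 2.05). Opposite RDH12, a retinol dehydrogenase, an isoform had 110, 165 and 313 TPM (7.34 ± 0.124, adjusted p = 7.67e-23). Its 2 full-length reads stood against 2948 of the sense gene, whose TPM in testis was 806 to 3490, and the strands overlap in 116 exonic bases. In 3 of these 4 the DSE testis library 2 was the lowest of the 6, and for RDH12 it was the highest, on both strands.

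The most read testis isoforms were high in the short reads too. The KHDRBS3 isoform had 66.6, 65.1 and 64.0 TPM in BMI and 66.5, 14.6 and 44.4 in DSE testis, and at most 0.577 elsewhere (log2 difference 5.54 ± 0.169, limma adjusted p = 6.77e-19). The RAB7A isoform had 132, 119 and 115 TPM in BMI and 134, 28.0 and 79.5 in DSE testis, and at most 0.541 elsewhere (6.44 ± 0.181). The SMAD2 isoform had 119, 151 and 128 TPM in BMI and 121, 25.1 and 103 in DSE testis, and at most 4.24 elsewhere (5.98 ± 0.226). In all 3 the testis libraries lay above every other library, and the lowest was DSE testis library 2.

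Their sense genes did not follow one rule. KHDRBS3 was higher in testis itself, by 5.05 on the log2 scale. RAB7A differed by 0.13 (adjusted p = 0.433), SMAD2 by −0.02 (0.897), NAV2 by −0.48 (0.125) and ZEB1 by 0.08, none of which was called. The RAB7A isoform shares 2628 of its 3529 bases with exons of RAB7A, and the others share 361 (NAV2), 108 (SMAD2) and 77 (ZEB1). In these stretches short reads cannot be assigned to a strand, so the 2 levels are not independent. The antisense isoforms of NAV2 (2.62, 10.7 and 23.3 TPM in testis, 3.41 ± 0.204) and ZEB1 (6.95, 10.7 and 17.0 TPM, 2.94 ± 0.256) were higher in testis, as was that of GTF2I (22.6, 58.2 and 66.8 TPM, 4.44 ± 0.163). The sense gene GTF2I differed by 0.87.

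In epididymis, the LIPA isoform had 6.16, 49.1 and 27.5 TPM in BMI and 43.4, 0.849 and 25.0 in DSE, and was listed at 0 in all 24 other libraries (log2 difference 4.06 ± 0.389, adjusted p = 2.69e-08). LIPA itself was not called (−0.29, limma adjusted p = 0.256). Opposite WFDC10A, of the WAP family of protease inhibitors, an isoform had 5.71, 81.1 and 22.5 TPM in BMI and 226, 5.2 and 66.4 in DSE epididymis and 0 elsewhere (5.03 ± 0.436). It shares introns with RefSeq mRNA of the related gene WFDC9, and WFDC10A rose with it, by 10.45. Libraries of the epididymis thus spread widely at both loci while not overlapping with other glands. The lowest at both, BMI library 1 and DSE library 2, had the most smooth muscle marker TPM (5560 and 11706, against 738 to 3577 in the other 4) and vesicular gland marker TPM (5383 and 1094, against 3.13 to 216), whose part in the spread was not tested.

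Opposite PGAP2, which acts in the maturation of GPI anchors, an isoform had 27.9, 37.4 and 47.2 TPM in BMI and 11.5, 11.3 and 27.9 in DSE epididymis, and at most 3.62 elsewhere (4.16 ± 0.196). The sense gene was higher by 2.17. Opposite DEFB110, a beta-defensin, the antisense isoform had 2.39, 136 and 5.09 TPM in BMI and 90.0, 3.22 and 0.855 in DSE (3.49 ± 0.559). The sense gene peaked in the same 2 libraries with 2511 and 1829 TPM against 20.6 to 61.6 in the other 4, and these are the BMI epididymis library 2 and DSE epididymis library 1 whose markers stood apart. This isoform shares 397 exonic bases with DEFB110 and has a splice site that is not canonical. The PPY isoform was not tested, with 535 TPM in DSE epididymis library 1, 20.2 in BMI library 2 and at most 0.475 in the other 4.

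In prostate gland, an isoform opposite HOXA11, a homeobox gene of the posterior body axis, had 10.2, 27.0 and 37.4 TPM and at most 6.27 elsewhere (3.94 ± 0.203, adjusted p = 1.54e-12). HOXA11 itself had 11.2 TPM as the median of the prostate gland and 40.2 in bulbourethral gland, so the medians of the strands peaked in different glands, although HOXA11 was also called higher in prostate gland (log2 difference 1.36, limma adjusted p = 0.0315). The isoform shares 833 of its 1975 bases with exons of HOXA11, and 1 of its introns is GG-AG. Opposite NCOA4, a receptor of ferritin breakdown and androgen receptor coactivator, an isoform had 4.47, 13.1 and 21.2 TPM and at most 0.265 elsewhere (3.61 ± 0.164), with a template switching mark. NCOA4 differed by 0.37 (adjusted p = 0.28), and by 1.36 (adjusted p = 7.53e-05) once isoforms that join it to neighbouring genes were added. Opposite TTC1 an isoform had 1.35, 4.87 and 9.59 TPM and at most 0.826 elsewhere (2.25 ± 0.176), while TTC1 differed by 0.07 (adjusted p = 0.724). In all 3 the BMI prostate library 2 had the lowest antisense level of the 6.

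In bulbourethral gland, an isoform opposite PAX9, a paired box transcription factor, had 9.83, 12.9 and 18.1 TPM and at most 4.26 elsewhere (3.32 ± 0.143, adjusted p = 1.29e-14), and PAX9 was higher by 5.13. They share 2796 exonic bases. Opposite MCF2L, a guanine nucleotide exchange factor, an isoform had 7.29 to 13.6 TPM (2.65 ± 0.169), and MCF2L was higher by 3.12. Opposite CLCA2, a regulator of chloride channels, an isoform had 1.9, 2.87 and 5.7 TPM (1.94 ± 0.113), and CLCA2 was higher by 6.45. Opposite MZB1, a protein of plasma cells that assists antibody assembly, an isoform had 3.23, 12.6 and 27.4 TPM (3.14 ± 0.178), and MZB1 was higher by 1.49, as it was in epididymis. All 4 sense genes were thus higher in the same gland as the antisense isoform. The CLCA2 isoform had 2 full-length reads and 65% A after its 3′ end. It shares 351 exonic bases with CLCA2, so that there, as at PAX9, short reads of both strands cannot be told apart. The isoforms opposite MCF2L and MZB1 share no exonic base with the sense gene.

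No isoform of vesicular gland opposite a gene with a symbol was called with all 6 libraries above the other 24. The largest differences without regard to symbols, chosen after the values were seen, were 8.14 ± 0.266 in testis and 9.75 ± 0.281 in bulbourethral gland. The former, opposite ENSSSCG00000053321 on chr11:78173345-78186660, had 95.8, 386 and 466 TPM in testis, 14 and 7 full-length reads in the BMI and DSE testis libraries, and no exonic overlap with its sense gene, which had 0.452 TPM or less in testis. The latter, opposite ENSSSCG00000033452 on chr2:832014-842095, had 324, 1362 and 2183 TPM but 2 full-length reads. Of its 888 bases 833 overlap exons of a sense gene with 5376, 13277 and 19349 TPM and 1052 sense reads, so that the short reads of both cannot be told apart there.

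**Figure D4:**
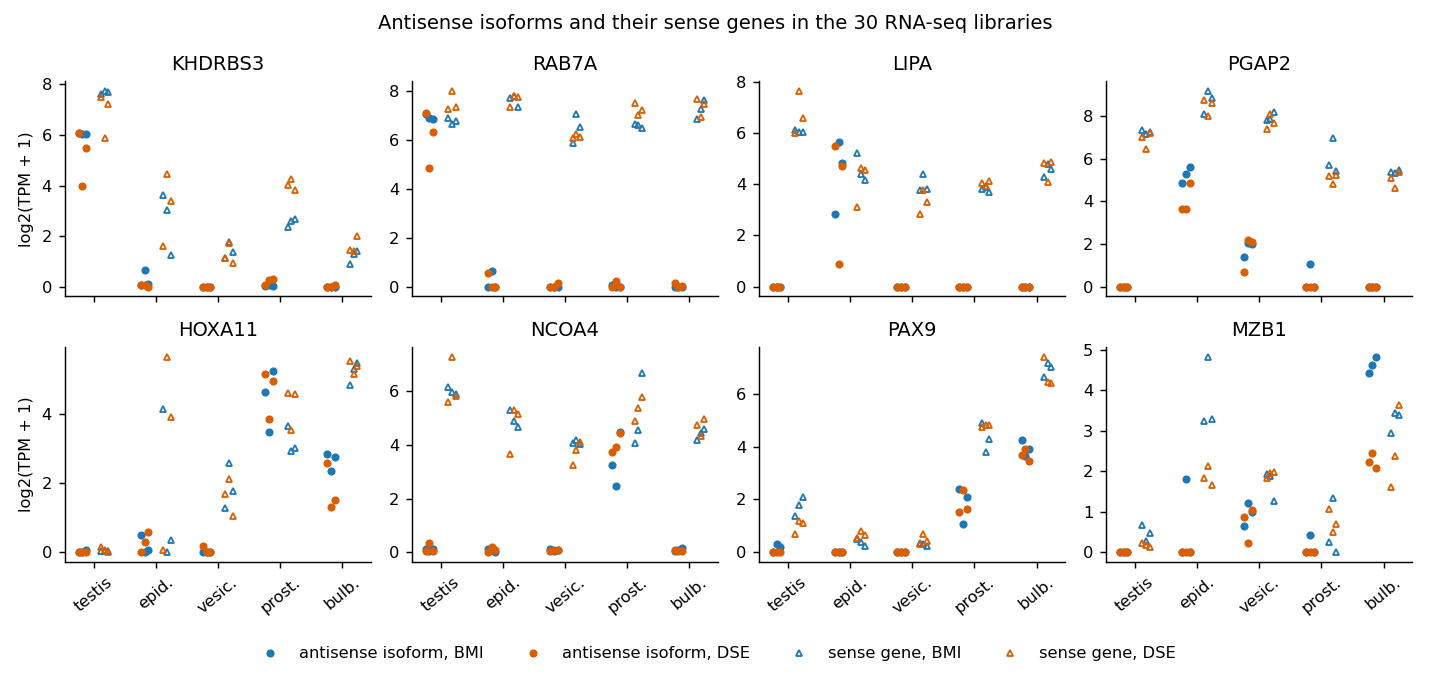
Level of 8 antisense isoforms (filled circles) and of their sense genes (open triangles) in each of the 30 RNA-seq libraries, as log2(TPM + 1) on the y axis by gland on the x axis, with BMI in blue and DSE in orange. The antisense isoforms of KHDRBS3 and RAB7A rise in testis, of LIPA and PGAP2 in epididymis, of HOXA11 and NCOA4 in prostate gland and of PAX9 and MZB1 in bulbourethral gland, while RAB7A and LIPA have sense levels in every gland.

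The call of each antisense isoform was set beside that of its sense gene, where the gene was tested. Pairs of isoform and gene were counted, so that a gene with several antisense isoforms counts several times. Pairs from 1 gene are not independent. In testis, 485 pairs had a higher antisense isoform. The sense gene was higher in 219 of them (45.2%), lower in 38 and not called in 228. Over all 19796 genes tested, each counted once, 34.6% were higher in testis and 12.7% lower. Beside antisense isoforms that were not called, the sense gene was higher in 26.1% of the pairs. In 37 of the 67 pairs with an antisense isoform lower in testis (55.2%), the sense gene was lower too. In epididymis the sense gene was higher in 66 of 120 pairs (55.0%, background 15.1%), in vesicular gland in 15 of 20 (75.0%, background 2.95%), in prostate gland in 14 of 25 (56.0%, background 3.69%) and in bulbourethral gland in 25 of 40 (62.5%, background 8.45%). Pairs with a lower sense gene beside a higher antisense isoform numbered 38, 1, 3, 0 and 2 in these 5 glands. Of all genes, 12.7%, 6.56%, 30.1%, 12.8% and 12% were lower there.

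Since overlapping exons share short reads, the pairs without exonic overlap were counted alone. Among them the sense gene was higher in 82 of 153 pairs in testis (53.6%), 24 of 38 in epididymis (63.2%), 4 of 6 in vesicular gland, 7 of 13 in bulbourethral gland (53.8%), and 1 of 6 in prostate gland (16.7%). The shares of testis and epididymis were no smaller without overlap. With sense genes measured by their Ensembl transcripts alone, the share over all pairs fell to 37% in testis and to 43.1% in epididymis, and it was 52.2% to 64.7% in the accessory glands. In prostate gland 13 of the 14 pairs in which both strands were higher had exonic overlap.

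**Figure D5:**
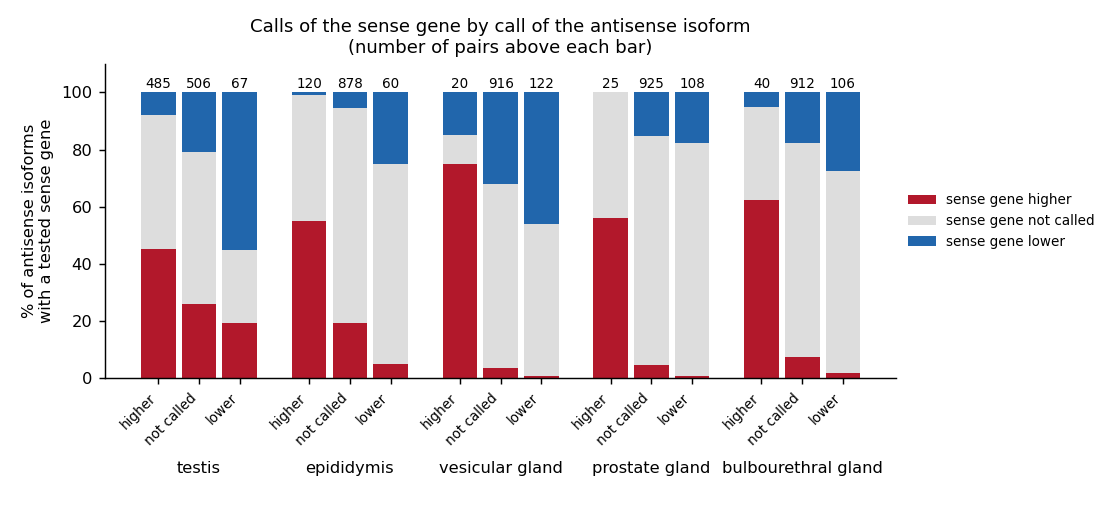
Share of antisense isoforms with a tested sense gene (y axis, percent) whose sense gene was higher (red), not called (grey) or lower (blue) in the gland against the other 4, grouped by the call of the antisense isoform itself (x axis) in each gland, with the number of pairs above each bar. In every gland the red part is largest beside antisense isoforms called higher.

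Genes of 6 lists were followed across the glands. Of 52 HOX genes, 37 were matched by symbol and 7 of these had antisense isoforms, 12 in all, of which 11 were tested. In testis 0 were higher and 6 lower, with a median log2 difference of −1.5, where 5.59% of all antisense isoforms tested were lower and their median was 0.839. In epididymis 4 were higher and 3 lower, in vesicular gland 2 and 3, in prostate gland 4 and 2, and in bulbourethral gland 5 and 1. The shares over all antisense isoforms tested were 10.4% higher and 5.74% lower in epididymis, 2.17% and 9.85% in prostate gland, 2.02% and 11.1% in vesicular gland and 3.41% and 9.93% in bulbourethral gland. The HOXA2 isoform (chr18:45473362-45477405, minus strand, tail-to-tail) had a median of 166 TPM in epididymis (79.9 to 310), 104 in vesicular gland (90.1 to 176), 89.2 in bulbourethral gland (68.0 to 128), 12.6 in prostate gland (7.41 to 100, the highest in BMI library 2) and 3.93 in testis (0.266 to 8.24). The sense gene HOXA2 never exceeded 8.26 TPM.

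Other HOX isoforms had other orders of glands. The HOXA10 isoform had 9.41, 25.4 and 33.1 TPM in prostate gland and 18.9, 26.1 and 30.6 in bulbourethral gland, which overlapped, and at most 2.43 in the other glands. HOXA10 itself was called higher in the same pair of glands, with medians of 25.7 and 51.5 TPM, and reached 70.6 TPM in 1 epididymis library. The HOXA5 isoform had 5.12, 6.93 and 13.0 TPM in epididymis and was listed at 0 in all testis libraries, with log2 differences of 2.22 ± 0.219 and −1.66 ± 0.219.

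Of 52 genes of gland and epithelial transcription factors, 50 were matched and 7 had 16 antisense isoforms, and all 8 that were tested were lower in testis (5.59% over all antisense isoforms tested), with a median log2 difference of −1.82 against 0.839. Opposite GRHL2, an epithelial grainyhead factor, one had 3.21, 4.57 and 7.83 TPM in vesicular gland and 0 in all testis libraries. Opposite GATA2, a zinc finger factor, one had 4.34, 17.0 and 22.1 TPM in vesicular gland, 6.62, 12.4 and 15.3 in prostate gland and 0.105, 0.426 and 0.984 in bulbourethral gland. GATA2 was itself highest in vesicular gland, with a median of 292 TPM.

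Of 75 genes of spermatogenesis, 68 were matched by symbol and 3 had antisense isoforms, 9 in all. Of 5 tested, 3 were higher in testis, where 47.0% of all antisense isoforms tested were, and none was called in another gland. The isoform opposite GAPDHS, the sperm form of glyceraldehyde-3-phosphate dehydrogenase, had 0, 0.931 and 1.57 TPM in epididymis and at most 0.128 in testis, where the sense gene had 143, 502 and 537 TPM. The antisense isoform was called in no gland (0.77 in epididymis), while GAPDHS was called higher in epididymis also (1.37, limma adjusted p = 0.000223). Opposite SPACA1, a gene of the sperm acrosome, a head-to-head isoform that starts 43 bases inside the gene had 8 full-length reads but 0 TPM in all testis libraries, with 71.7, 261 and 385 TPM of the sense gene. Of 26 genes of steroid production and somatic testis cells, 22 were matched and 1 had an antisense isoform, opposite the clusterin gene CLU, with 2.34, 3.78 and 7.01 TPM in testis and at most 0.239 elsewhere (2.24 ± 0.128).

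Of 62 genes of epididymal and seminal secretion, 42 were matched by symbol and 5 had 9 isoforms, 7 of them tested, with 3 higher and 1 lower in testis and 2 higher in epididymis. The 3 higher in testis were near the 47.0% of all antisense isoforms tested, of which 5.59% were lower there and 10.4% higher in epididymis. The isoform opposite CRISP3, a cysteine-rich secretory protein, had 1.67, 12.9 and 23.4 TPM in testis, 0 to 0.382 in bulbourethral gland and 0 in the other 3 glands (3.45 ± 0.177), and one of its splice sites is not canonical. CRISP3 itself had 709, 759 and 970 TPM in bulbourethral gland and at most 0.535 in testis. Opposite PSP-II, a spermadhesin of seminal plasma, an isoform had 7.41, 6.11 and 4.79 TPM in BMI and 0.525, 1.29 and 1.44 in DSE vesicular gland, beside 16050 to 32263 TPM of the sense gene, with which it shares 72 exonic bases. It was called higher in vesicular gland (1.86 ± 0.134), carries the template switching mark and had 2 full-length reads. Of 76 genes with antisense transcripts known from other mammals, 65 were matched and 9 had 23 isoforms here. Of 14 tested, 8 were higher and 3 lower in testis, against 47.0% and 5.59% of all antisense isoforms tested. Among them, an isoform inside DNM3, a dynamin gene whose antisense transcript carries microRNAs in other mammals, had 0.688, 1.6 and 6.32 TPM in epididymis, where it was called higher by 1.15. An isoform inside KCNQ1, a potassium channel gene with an imprinted antisense transcript in other mammals, had 9 full-length reads and at most 1.37 TPM in any library, with 90% A after its 3′ end.

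Between the breeds few antisense isoforms were called. DSE was compared with BMI within each gland (3 against 3 libraries, limma, adjusted p below 0.05 and at least 1 on the log2 scale). In testis 0 were higher in DSE and 13 lower (backgrounds 0.0928% and 0.264% of all transcripts), and in epididymis 0 and 0 (0.0186% and 0.0201%, with 70 isoforms at an unadjusted p below 0.05 in limma). In vesicular gland 1 was higher and 0 lower (0.0371% and 0.0356%), in prostate gland 4 and 0 (0.204% and 0.0526%), and in bulbourethral gland 1 and 1 (0.0325% and 0.0619%). At an unadjusted p below 0.05 in limma stood 203, 124, 127 and 94 antisense isoforms in testis, vesicular, prostate and bulbourethral gland. These were 15.7%, 9.62%, 9.85% and 7.29% of the 1289 tested. No share over all transcripts was counted for these numbers or for the fit that follows. One fit of all 30 libraries gave 23 higher and 140 lower in testis, 8 and 7 in epididymis, 6 and 7 in vesicular gland, 8 and 2 in prostate gland and 5 and 3 in bulbourethral gland. Without DSE testis library 2 the testis count was 5 higher and 7 lower, and this library had fewer spermatid and more Leydig marker transcripts than the rest, whose part in the counts was not tested. Leaving out any single testis library gave 0 to 5 higher and 2 to 12 lower, with the fewest lower without BMI testis library 1, and no filter on low values gave 4 lower. With the replicate number as a block, 0 breed calls remained in every gland.

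In the 2 largest differences in testis, the DSE libraries were at or near 0. Opposite NOX3, an NADPH oxidase, an isoform (chr1:11458554-11465186, minus strand) had 11.4, 23.1 and 14.4 TPM in BMI and 0.103, 0 and 0 in DSE (log2 difference −4.01 ± 0.268, adjusted p = 0.0198). Opposite MVB12B, a subunit of the ESCRT-I complex, an isoform (chr1:266936119-266945415, minus strand) had 8.99, 9.82 and 7.74 TPM in BMI and 0.286, 0 and 0.431 in DSE (−3.0 ± 0.168, adjusted p = 0.0133). MVB12B itself had 14.1, 15.1 and 14.2 TPM in BMI and 20.2, 24.1 and 21.3 in DSE. Both isoforms reached 1 TPM in the 3 BMI testis libraries alone and so passed the filter on low values through them, which favoured a breed difference in those that were tested.

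Of the 13 isoforms called in testis, 12 had full-length reads in BMI testis (2 to 28, with 2 reads in 8 of them) and 0 in DSE testis. Of all 839 antisense isoforms with reads in BMI testis, 395 (47.1%) likewise had 0 in DSE testis, and at 2 reads an absence from the other library says little. The highest number, 28, belonged to the isoform opposite CUX1, a homeobox factor, with 16.8, 10.6 and 15.8 TPM in BMI and 0.735, 1.15 and 1.46 in DSE testis.

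In the other glands the called isoforms were mostly of low level. Opposite EXOSC4, a subunit of the RNA exosome, an isoform had 0 TPM in all BMI and 7.02, 10.9 and 12.1 in DSE prostate gland (3.43 ± 0.204, adjusted p = 0.023), though with 3 full-length reads in BMI and 2 in DSE prostate gland and a splice site that is not canonical. In the other glands, where it was not called, the same difference was 2.22 in testis, 2.91 in vesicular gland, 3.08 in bulbourethral gland and 3.67 in epididymis. Opposite MZB1, the isoform higher in bulbourethral gland had 20.6, 23.4 and 27.4 TPM in BMI and 3.7, 4.5 and 3.23 in DSE (−2.37 ± 0.15, adjusted p = 0.0442), with 19 and 2 full-length reads. This call was lost when any 1 of the 6 libraries was left out, with size factors and with no filter on low values. The sense gene MZB1 had 6.66, 9.82 and 9.41 TPM in BMI and 2.04, 4.19 and 11.4 in DSE, which overlapped. Of the others, NDUFC1, a subunit of complex I (vesicular gland, 1.48), IFN-OMEGA-6, an interferon (prostate gland, 1.1), the gene ENSSSCG00000033904 with its isoforms PB.2533.93 and PB.2533.95 (prostate gland, 2.74 and 1.66) and RMND5A, of a ubiquitin ligase complex (bulbourethral gland, 1.26), were opposite isoforms higher in DSE. The RMND5A call was lost with size factors, with no filter and with a filter within the gland, and the NDUFC1 and IFN-OMEGA-6 calls with size factors and with the filter within the gland. The call of PB.2533.93 was lost with size factors, those of MVB12B, PB.2533.93 and PB.2533.95 with a pseudocount of 0.1, and that of IFN-OMEGA-6 in one fit of all libraries. Leaving out 1 of the 6 libraries compared ended the call in 6 of 6 refits for IFN-OMEGA-6, 5 for PB.2533.93 and for RMND5A, 4 for NOX3 and for EXOSC4 and 3 for MVB12B, and in 0 for NDUFC1 and PB.2533.95. Without the 4 libraries that stood apart, the calls of NOX3, EXOSC4, IFN-OMEGA-6 and PB.2533.93 were lost. With the replicate number as a block, all 9 named breed calls were lost.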

How the data were processed

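Iso-seq and RNA-seq of testis, epididymis and accessory glands were analysed here, and small RNA libraries were not used. The deposited read counts give the full-length reads of each isoform in each library. To make them, the authors clustered merged reads with IsoSeq3, aligned the result to Sscrofa11.1 with GMAP, collapsed it with cDNA_Cupcake and classified it with SQANTI3. The authors also deposited the SQANTI3 percent of A in the 20 bases past each isoform. The deposited TPM values were made by the authors with Salmon (version 1.9.0) on Ensembl transcripts joined with isoforms that do not match them. Labels and methods differ on RNA selection, naming ribosomal RNA depletion and poly(T) beads. The TPM table keeps no read depth, and the totals listed in the study's supplement were not used here.

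Members were the isoforms of the SQANTI3 class antisense. Members, lists and tests were chosen with earlier results of these data known. Position, exonic overlap and introns were computed from the deposited annotation, and sequences, GC content and RefSeq partners from the RefSeq copy of Sscrofa11.1 with pysam (version 0.24.0). The level of a sense gene was the sum of the TPM of transcripts named for it alone, and isoforms that name several genes formed units of their own. Transcripts that reached 1 TPM in 3 or more of the 30 libraries were fitted with limma (version 3.58.1, R version 4.3.3) on log2(TPM + 1), each gland against the mean of the other 4 with breed and gland as groups, and breeds within each gland. P-values were adjusted after Benjamini-Hochberg over all transcripts or genes. On this scale the changes of low transcripts are understated. Labels do not say which libraries share an animal, so p-values measure the spread between these libraries. Genes were named by rule as the 10 isoforms with most reads, the largest differences per gland with all 6 libraries above the other 24, breed calls and members of the lists, where the sense gene has a symbol, and others are said to be chosen after values were seen. On simulated data with planted differences of 2 on the log2 scale the gland fit recovered 91% and the breed fit within a gland 0%, against 59.5% for 1 fit of all libraries. Results for a few genes are not reported here. Alternatives changed the pseudocount, filter, scaling, block and libraries, and the closing section gives their effect.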

Additional observations from a re-analysis of the deposited data

Results flagged for a closer look

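For 12 antisense isoforms called between the breeds in testis, the breed difference in testis (DSE minus BMI, log2) differed from that in the other 4 glands by an interaction term in limma. The difference of differences was −3.99 for the isoform opposite NOX3, −3.0 for MVB12B, −2.84 for CUX1, −2.31 for FRMD4B and −1.65 for DIAPH1. Opposite genes without a symbol it was −2.97, −2.61 and −1.71 for 3 isoforms of ENSSSCG00000061431, −2.65 for ENSSSCG00000056385, −2.44 for ENSSSCG00000046071, −1.87 for ENSSSCG00000060386 and −1.37 for ENSSSCG00000059043. In each of the 12 the DSE libraries were the lower ones in testis, and the isoforms of ENSSSCG00000061431 lie at 1 locus. All were chosen by their breed call in testis, so the interaction largely repeats that call and is no separate evidence. For the isoforms opposite NOX3 and MVB12B the breed difference in each of the other glands lay between −0.09 and 0. Chosen in the same way by their call in 1 gland, the term also passed for the isoform opposite NDUFC1 in vesicular gland (1.65), the isoform PB.2533.95 opposite ENSSSCG00000033904 in prostate gland (1.41) and the isoform opposite MZB1 in bulbourethral gland (−2.12). It did not pass for the other 4 isoforms called, namely those opposite EXOSC4 (0.46, limma adjusted p = 0.758), IFN-OMEGA-6 (0.91, 0.549) and ENSSSCG00000033904 (PB.2533.93, 1.63, 0.0757) in prostate gland and RMND5A in bulbourethral gland (0, limma adjusted p = 1.0).

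A single library stood far from the other 5 testis libraries in 3 of 20 groups of 6 tested, where its gap over the range exceeded Dixon's 95% critical value. These were the isoform opposite TMEM106A (0.753), the isoform opposite RP9 (0.729) and the share of all TPM held by antisense isoforms (0.7), each lowest in DSE testis library 2. Chance flags about 1 in 20 groups. That library also had the fewest spermatid marker transcripts, as given above, and the part of this in the 3 values was not tested.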

How the results depend on the processing

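With a pseudocount of 0.1 the gland counts (higher and lower) became 277 and 338 in epididymis, 74 and 609 in vesicular gland, 75 and 504 in prostate gland and 94 and 523 in bulbourethral gland, with 243 lower in testis. Size factors gave 88 higher in epididymis, 63 in vesicular gland and 29 in bulbourethral gland. Leaving out single libraries kept the gland counts within 590 to 624 and 68 to 75 in testis, 126 to 154 and 69 to 89 in epididymis, 24 to 33 and 139 to 163 in vesicular gland, 22 to 36 and 122 to 147 in prostate gland and 41 to 46 and 119 to 143 in bulbourethral gland. All 15 isoforms named for a gland kept their call under every alternative run. They were chosen for the largest differences with all 6 libraries above the other 24, which nearly fixed this in advance. Breed counts (DSE higher and lower) were less stable. One fit of all 30 libraries gave 23 and 140 in testis, 8 and 7 in epididymis, 6 and 7 in vesicular gland, 8 and 2 in prostate gland and 5 and 3 in bulbourethral gland. A pseudocount of 0.1 gave 2 higher in testis, 3 and 3 in vesicular gland, 7 and 1 in prostate gland and 4 higher in bulbourethral gland. Size factors gave 1 higher in testis, 3 in vesicular gland, 2 in prostate gland and 0 and 0 in bulbourethral gland. No filter gave 4 lower in testis and 0 and 0 in bulbourethral gland, and a filter within the gland, added after seeing the data, 2 higher in testis, 2 in vesicular gland and 0 in bulbourethral gland. Without the 4 libraries that stood apart, also added later, testis had 5 and 7 and prostate gland 1 and 1. Leaving out single libraries gave 0 to 5 and 2 to 12 in testis (5 higher without DSE library 2), 0 to 1 and 0 to 1 in epididymis, 1 to 3 and 0 to 2 in vesicular gland, 1 to 3 and 0 to 1 in prostate gland, and 0 to 2 and 0 to 0 in bulbourethral gland, where each of the 6 libraries ended the MZB1 call. Labels do not say whether replicate numbers pair the libraries, and correlations of deviations from group means cannot decide it. Across glands, libraries of the same breed and number had a median of 0.0449 (−0.326 to 0.441), with 18 of 60 over 0.1. Those of the same breed and another number had −0.0131, with 23 of 120 over 0.1. Libraries of both breeds with the same number in 1 gland, which the block pairs, had −0.0634, with 3 of 15 over 0.1. With the replicate number as a block, 0 breed calls remained in every gland. The cause of these changes was not tested.

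The share of full-length reads was 0.344% with at least 2 reads in the library, 0.341% for the 2154 isoforms with canonical sites and no template switching mark, and 0.275% for the 1908 isoforms under 60% A. Against sense genes extended by Iso-seq transcripts, 15.6% were head-to-head and 41.3% inside. Exonic overlap of at least 50 bases was found in 46.9%. Loci with more antisense than sense reads numbered 426 when isoforms with canonical sites and no mark were counted alone. Among pairs without exonic overlap the sense gene was higher in 16.7% in prostate gland. Adding isoforms that name several genes changed the sense call of NCOA4 in prostate gland and of LCN8 in testis (−2.16), prostate gland (−3.0) and bulbourethral gland (−3.33).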

Other observations

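The largest upward differences in the remaining glands, chosen after the values were seen, involved isoforms with few full-length reads or weak separation. In epididymis an isoform opposite ENSSSCG00000062376 (chr1:58855870-58873277, minus strand) had 9.17, 74.8 and 206 TPM (lowest, median and highest) and at most 1.11 TPM elsewhere, with 3 full-length reads in BMI and 1 in DSE epididymis. In vesicular gland an isoform opposite DCHS2, a protocadherin gene, had 7.68, 17.6 and 21.0 TPM, but up to 16.7 TPM in another gland. Its 26 full-length reads included 7 and 6 in the vesicular gland libraries and 10 in BMI prostate gland.

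The share of isoforms that were antisense differed along the genome, from 1.73% on chromosome X (52 of 3000) to 5.1% on chromosome 18 (118 of 2314).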
